A study of Mus musculus with 9 samples.

Results

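Transcript levels of 9 mouse genes that make, bind and read retinoic acid (Aldh1a1, Aldh1a2, Aldh1a3, Crabp1, Crabp2, Dhrs3, Rara, Rarb and Rarg) were compared across 3 luminal cell populations of the mammary gland. The genes were picked by name from the 27179 genes of the count table, and 8 of the 9 passed the filter on low counts, the exception being Aldh1a2. RNA-seq had been done in bulk on cells sorted from adult mouse mammary tissue after cells with lineage markers had been excluded, with 3 libraries per population. The populations were ML (CD14 negative, with the PR-cre/YFP reporter positive per the sample labels), HR-positive LP (CD14 positive, reporter positive) and HR-negative LP (CD14 positive, reporter negative). The abbreviations are kept as the labels give them. The design text of the series calls ML reporter negative, against the sample labels, which were followed here. The labels give no strain, no age beyond adult, and no statement on whether YFP marks present or earlier activity of Cre. They also do not say whether the libraries came from separate animals, so p-values measure the spread between these libraries, which may be technical. The design sets the CD14-positive populations against each other and against ML.

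Retinoic acid is a small lipid hormone made from vitamin A. Retinol is oxidised to retinal, and retinal dehydrogenases of the ALDH1A family then oxidise retinal irreversibly to retinoic acid, whereas DHRS3 reduces retinal back to retinol. Cellular retinoic acid binding proteins hold the product inside the cell, and the receptors RARA, RARB and RARG, each paired with an RXR, bind DNA at spaced direct repeats and switch genes on when they carry it. In the mammary gland, aldehyde dehydrogenase activity is widely used as a property by which luminal progenitor cells are sorted.

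Libraries held 27219103 to 108119756 counts and 15239 to 17735 detected genes. Values are TMM-scaled CPM (counts relative to a common library total) unless they are given as RPKM, which is also divided by gene length. The luminal markers (7 of 7 above 1 CPM in each population) summed to 13380 to 16540 CPM in ML and 13040 to 17450 CPM in HR-positive LP, against 14960 to 17130 CPM in HR-negative LP. Relative to HR-negative LP, Epcam, Cldn3 and Cldn7 were lower in both, Krt19 was higher in both, and Cldn4 was higher in ML. These calls made up 71.4 and 57.1% of the markers, against 44.6 and 29.9% of all tested genes. Epcam had 1322 CPM in ML and 1884 CPM in HR-positive LP, against 3514 CPM in HR-negative LP. Cd14, whose protein was used in the sort, was at 18.3 to 30.4 CPM in ML and 284 to 348 CPM in HR-positive LP, against 996 to 1180 CPM in HR-negative LP, and the progesterone receptor gene Pgr at 276 to 557, 204 to 329 and 6.12 to 15.8 CPM in the same order. Summed immune markers (9 genes) stayed at or under 2.36 CPM in every library, with Ms4a1 at 0 in each population. Summed fibroblast markers (9 genes, none at 0) were at 204 to 360 CPM in ML and 169 to 307 CPM in HR-positive LP, against 77.0 to 132.5 CPM in HR-negative LP. Dcn (152.7 and 128.5 CPM, against 8.94 CPM, in the same order) and Col6a3 (95.4 and 73.6 CPM, against 4.02 CPM) held most of the first 2 sums, while 3 fibroblast markers were lower in ML and 6 lower in HR-positive LP relative to HR-negative LP (median log2 fold changes over the 9 genes -1.67 and -2.12). Summed endothelial markers (7 genes, none at 0) were at 59.9 to 80.8 CPM in ML and 40.9 to 63.0 CPM in HR-positive LP, against 7.51 to 12.2 CPM in HR-negative LP, through Vwf (66.2 and 46.4 CPM, against 2.92 CPM); the other 6 endothelial markers were called in no comparison (medians over the 7 genes -0.01 and -0.68). Summed basal markers (9 genes, none at 0) were at 25.5 to 41.5, 26.4 to 43.4 and 37.9 to 74.9 CPM in the same order. Relative to HR-negative LP, Krt14 and Krt17 were lower in ML and HR-positive LP, and in ML Oxtr was lower and Krt5 higher. These calls made up 44.4% of the basal markers in ML and 22.2% in HR-positive LP, against 44.6 and 29.9% of all tested genes. Oxtr was also lower in ML relative to HR-positive LP. The part of these other cells in the results was not tested. On the second principal component HR-negative LP replicate 3 was far from its fellow libraries (91.6, against -15.8 and -39.5 for replicates 1 and 2).

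The retinal dehydrogenase Aldh1a3 and the binding protein Crabp2 were the members that differed in each of the 3 comparisons. Both were at their lowest in ML, intermediate in HR-positive LP and at their highest in HR-negative LP. In ML relative to HR-positive LP, 2 of the 8 tested members were lower (Aldh1a3 and Crabp2) and 0 higher, where 6.79% of all 15910 tested genes were called, 6.70% as lower and 0.0943% as higher. In ML relative to HR-negative LP, 3 were lower (Aldh1a3, Crabp2 and Rarb) and 1 higher (Crabp1), where 44.6% of all tested genes were called, 21.3% as lower and 23.3% as higher. In HR-positive LP relative to HR-negative LP, 2 were lower (Aldh1a3 and Crabp2) and 1 higher (Crabp1), where 29.9% of all tested genes were called, 12.8% as lower and 17.2% as higher. The shares of tested members called, 25%, 50% and 37.5%, were near the background in the comparisons with HR-negative LP. In the first comparison 2 genes made up the share, and in a fit of these 6 libraries with the replicate number, which pairs them, as a block, the same share of members (25%) stood beside a background of 23.3% of 15458 tested genes. The comparisons share libraries and are not independent of one another.

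**Figure D1:**
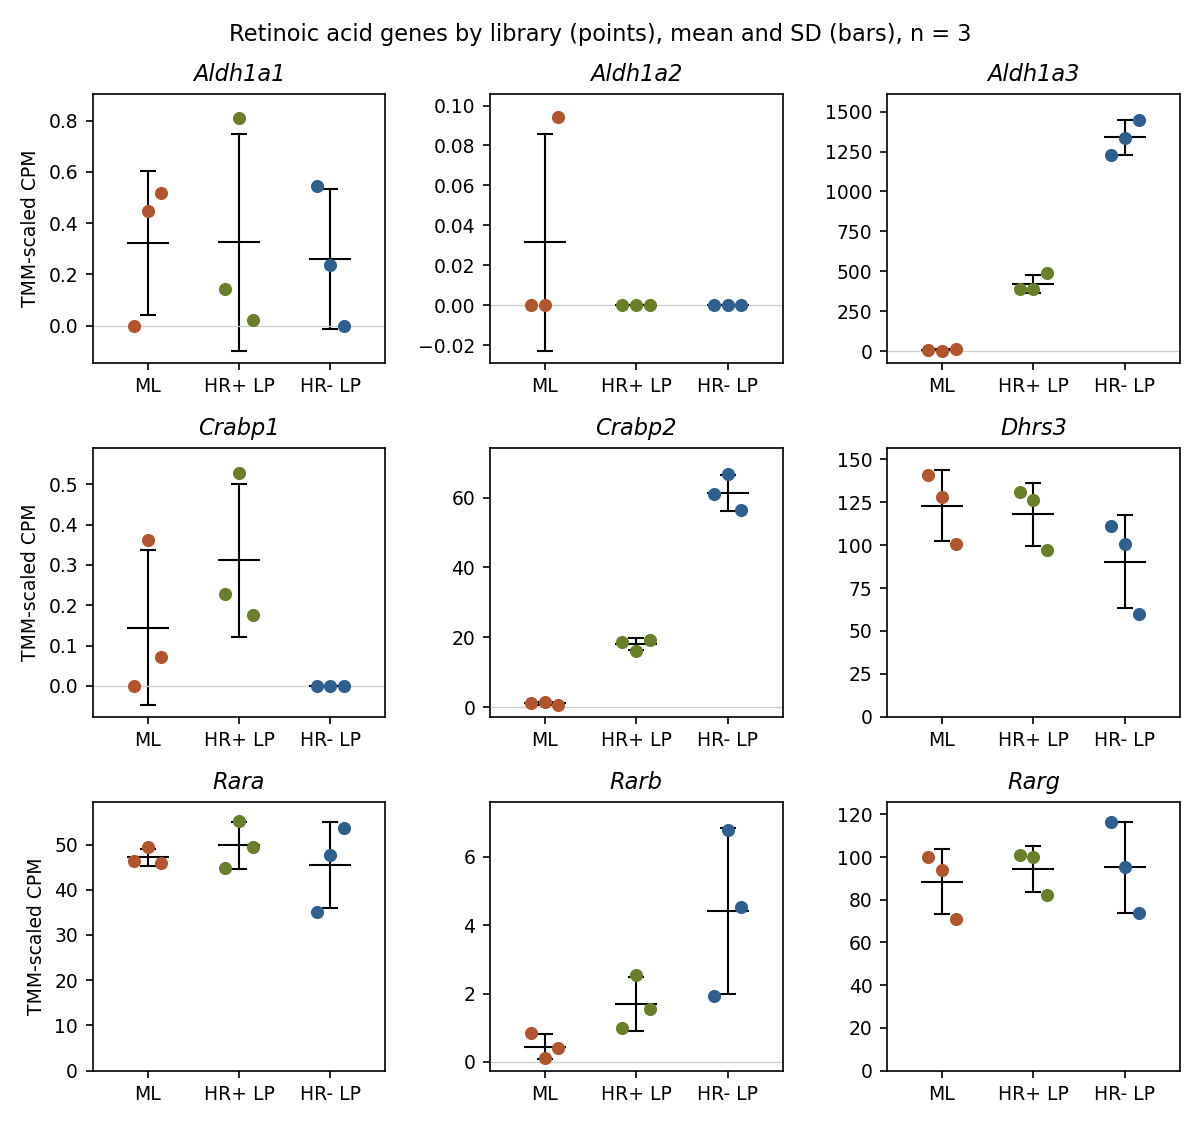
TMM-scaled CPM (y axis, linear, a separate scale per gene) of the 9 genes in ML, HR-positive LP (HR+ LP) and HR-negative LP (HR- LP). Points are libraries and bars the mean ± SD of 3 libraries; Aldh1a3 lies at 2.30 to 14.4 CPM in ML and 390 to 489 CPM in HR-positive LP, against 1229 to 1449 CPM in HR-negative LP, Crabp2 separates the populations in the same order, and Rara and Rarg overlap in all 3.

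Among the enzymes that make retinoic acid, most of the per-length level came from Aldh1a3 (gene ID 56847, chromosome 7, 66390892 to 66427477, GRCm38), one of the retinal dehydrogenases. It had 12.2, 2.30 and 14.4 CPM in ML, 390, 390 and 489 CPM in HR-positive LP, and 1229, 1337 and 1449 CPM in HR-negative LP. Every ML library was below every HR-positive LP library, and every HR-positive LP library was below every HR-negative LP library. ML libraries also varied most in relative terms, replicate 2 holding the lowest level of the 9. Aldh1a3 was 44.1-fold lower in ML relative to HR-positive LP, or -5.46 as a log2 fold change (SE 0.55, adjusted p = 5.31e-05). Relative to HR-negative LP it was 139-fold lower in ML (-7.12, SE 0.59, adjusted p = 3.01e-06). HR-positive LP was 3.16-fold below HR-negative LP (-1.66, SE 0.46, adjusted p = 0.0194). That last call ended when HR-positive LP replicate 1 was left out (adjusted p = 0.067), and also when replicate 2 was (adjusted p = 0.0756), at a log2 fold change of -1.60 in each case. In bulk libraries, fewer cells that express a gene and less RNA per cell cannot be told apart.

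The other ALDH1A genes were close to the limit of detection. Aldh1a1 (gene ID 11668, chromosome 19, 20492583 to 20643463), whose product is a cytosolic retinal dehydrogenase, had 0, 21 and 22 counts in ML, 15, 52 and 2 counts in HR-positive LP, and 27, 23 and 0 counts in HR-negative LP. Its level was under 1 CPM in every library, the groups overlapped, and no comparison was called (log2 fold changes 0.01, 0.30 and 0.28, adjusted p = 1, 0.906 and 0.914, with SEs of 1.61 to 1.64). Of the 50-base stretches of its transcripts in the GENCODE M21 annotation, 3.06% also occur in Aldh1a7, a close copy, so single reads could have been split between them. Aldh1a2 (gene ID 19378, chromosome 9, 71215789 to 71296243), the main retinal dehydrogenase of the embryo, had 4 counts in ML replicate 3 and 0 in the other 8 libraries. A count of 0 over the 3 libraries allowed up to 0.0117 CPM in HR-positive LP, and up to 0.0159 CPM in HR-negative LP. These limits count 3 reads over the pooled library totals, without TMM scaling, and cover counting error only.

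Per length, Aldh1a3 made up 100, 75.4 and 93.4% of the summed ALDH1A RPKM in the ML libraries, 99.94, 99.65 and 99.99% in HR-positive LP, and 99.93, 99.97 and 100% in HR-negative LP. The ML shares rest on levels of 0.676 to 4.22 RPKM. The share in ML averaged 89.6% ± 12.7 (SD, n = 3) and did not separate from that of HR-positive LP or HR-negative LP (exact two-sided permutation test, p = 0.4 in each case; with 3 against 3 libraries this test cannot give less than 0.1).

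The binding proteins split in the same way into a gene with a strong gradient and a gene near zero. Crabp2 (gene ID 12904, chromosome 3, 87948693 to 87953372) encodes the protein that carries retinoic acid to its nuclear receptors. It had 1.27, 1.43 and 0.589 CPM in ML, 18.6, 16.1 and 19.3 CPM in HR-positive LP, and 60.9, 66.8 and 56.5 CPM in HR-negative LP. The groups did not overlap, and the libraries of HR-positive LP and of HR-negative LP lay close together. Crabp2 was 16.5-fold lower in ML relative to HR-positive LP (log2 fold change -4.04, SE 0.27, adjusted p = 3.33e-06) and 56.2-fold lower relative to HR-negative LP (-5.81, SE 0.29, adjusted p = 1.09e-07). HR-positive LP was 3.41-fold below HR-negative LP (-1.77, SE 0.23, adjusted p = 0.000274). These calls held under every one of the 18 alternative settings tried.

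Crabp1 (gene ID 12903, chromosome 9, 54764748 to 54773110), whose product binds retinoic acid in the cytosol and is linked to its breakdown, ran the other way at a far lower level. It had 0, 17 and 3 counts in ML, 24, 34 and 16 counts in HR-positive LP, and 0, 0 and 0 counts in HR-negative LP. Reads were thus found in all 3 HR-positive LP libraries, in 2 of 3 ML libraries and in none of the HR-negative LP libraries. Taking 3 counts over the group as the limit in HR-negative LP, the pooled level was at least 11-fold higher in ML (adjusted p = 0.0452) and at least 18.2-fold higher in HR-positive LP (adjusted p = 0.0347). ML and HR-positive LP overlapped (adjusted p = 0.909). Both calls rest on few reads: leaving out a library gave adjusted p of 0.0345 to 0.188 for ML and 0.0316 to 0.1 for HR-positive LP relative to HR-negative LP, and every single library except ML replicate 1 ended the call in both comparisons when it was left out.

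Dhrs3 (gene ID 20148, chromosome 4, 144892534 to 144928209), the retinal reductase that limits retinoic acid formation, was well expressed in every population. It had 141, 128 and 100 CPM in ML, 131, 126 and 97.0 CPM in HR-positive LP, and 111, 100 and 59.7 CPM in HR-negative LP. The 3 groups overlapped, and the lowest library was HR-negative LP replicate 3, the one that stood apart on the second principal component. The log2 fold change was 0.06 (SE 0.23, adjusted p = 0.977) for ML over HR-positive LP. It was 0.44 (SE 0.23, adjusted p = 0.139) for ML over HR-negative LP and 0.38 (SE 0.23, adjusted p = 0.237) for HR-positive LP over HR-negative LP. Without HR-negative LP replicate 3 these differences came to 0.22 (adjusted p = 0.366) and 0.16 (adjusted p = 0.556). Within each replicate number, however, HR-negative LP held the lowest level. With that number as a block both differences were called, at 0.47 (adjusted p = 0.00964) and 0.42 (adjusted p = 0.0247). Whether the number pairs HR-negative LP with the other populations is unclear.

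As a description, the order of per-length levels differed between the populations. In ML, Dhrs3 led with 68.5 ± 11.6 RPKM, ahead of Rarg at 27.5 ± 4.73, Rara at 11.4 ± 0.456, Aldh1a3 at 2.83 ± 1.89 and Crabp2 at 1.22 ± 0.495 RPKM (SD, n = 3). Aldh1a3 and Crabp2 overlapped in ML, whereas the genes above them did not overlap their neighbours. In HR-positive LP, Aldh1a3 led with 124 ± 16.8 RPKM, followed by Dhrs3 at 65.7 ± 10.2, Rarg at 29.4 ± 3.31, Crabp2 at 20 ± 1.84 and Rara at 12.1 ± 1.25 RPKM, with no overlap between neighbours. In HR-negative LP, Aldh1a3 led with 394 ± 32.4 RPKM, followed by Crabp2 at 68.2 ± 5.75, Dhrs3 at 50.3 ± 15.1, Rarg at 29.7 ± 6.65 and Rara at 11.0 ± 2.31 RPKM. There, Dhrs3 and Rarg overlapped. Rarb, Crabp1, Aldh1a1 and Aldh1a2 took the last 4 places in each population.

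**Figure D2:**
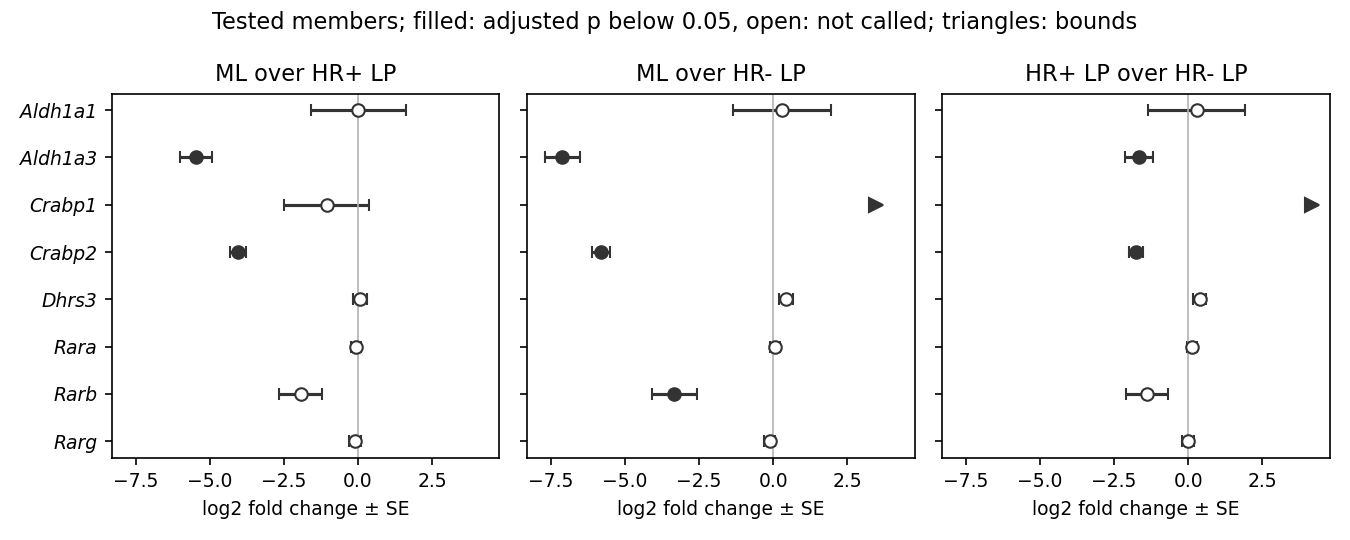
Log2 fold changes (x axis, ± SE) of the 8 tested genes for ML over HR-positive LP, ML over HR-negative LP and HR-positive LP over HR-negative LP, from edgeR's quasi-likelihood test on all 9 libraries. Filled symbols passed an adjusted p of 0.05, and triangles give the lower bound for Crabp1, which had no count in HR-negative LP (log2 bounds 3.46 and 4.18); Aldh1a3 at -5.46, -7.12 and -1.66 and Crabp2 at -4.04, -5.81 and -1.77 lie left of 0 in each panel, and Dhrs3, Rara and Rarg lie near 0.

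Of the receptors, Rarg and Rara did not pass the test in any comparison, and Rarb was low throughout and lower in ML relative to HR-negative LP. Rarg (gene ID 19411, chromosome 15, 102234938 to 102257522), the receptor gene best known from skin and other epithelia, had 99.99, 94.0 and 71.2 CPM in ML, 101, 100 and 82.1 CPM in HR-positive LP, and 117, 95.2 and 73.9 CPM in HR-negative LP. Rara (gene ID 19401, chromosome 11, 98927800 to 98974942), the most widely expressed receptor of the family, had 46.3, 49.4 and 46.0 CPM in ML, 44.8, 55.1 and 49.5 CPM in HR-positive LP, and 35.0, 47.7 and 53.6 CPM in HR-negative LP. Both genes overlapped between all groups. The log2 fold changes of Rarg were -0.10, -0.11 and -0.01 (SE 0.19 each, adjusted p = 0.952, 0.678 and 0.965) for ML over HR-positive LP, ML over HR-negative LP and HR-positive LP over HR-negative LP. Those of Rara in the same order were -0.08, 0.06 and 0.13 (SE 0.17 each, adjusted p = 0.96, 0.816 and 0.592).

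Rarb (gene ID 218772, chromosome 14, 16430839 to 17082331) is itself a classical target of retinoic acid through a response element in its promoter, and the stretch that holds this element is shown because Rarb is the receptor gene that passed the test, between ML and HR-negative LP. The 120 bases before a RefSeq start site of Rarb, chr14:16575477-16575596 on the minus strand (GRCm38.p6), are printed 5′ to 3′, with the direct repeat in capitals.
Rarb promoter: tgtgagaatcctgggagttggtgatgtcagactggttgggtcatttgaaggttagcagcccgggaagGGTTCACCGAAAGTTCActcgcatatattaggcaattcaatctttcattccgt
The capitals mark the half-site GGTTCA, a spacer of 5 bases and the second half-site AGTTCA, at positions -53 to -37 from the start. Direct repeats of the half-site AGGTCA, or of its variant forms AGTTCA (second in Rarb), GGGTCA (not in this repeat) and GGTTCA (first in Rarb), in any pairing, with spacers of 1, 2 or 5 bases, were searched on both strands of RefSeq promoter windows of 300 bases (250 before and 50 after the start). Windows were held for 7 of the 9 genes (14 windows), not for Aldh1a3 and Crabp2, and this window of Rarb was the only one with a match. Over all 32851 promoters in the table, 0.0974% held such a repeat with a spacer of 5, 0.268% one with a spacer of 2 and 0.222% one with a spacer of 1. A match is a description of the letters, not evidence of binding.

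Rarb had 0.837, 0.106 and 0.400 CPM in ML, 0.982, 2.54 and 1.56 CPM in HR-positive LP, and 1.92, 6.79 and 4.54 CPM in HR-negative LP. All ML libraries were below all libraries of the other populations, and HR-positive LP overlapped HR-negative LP. Rarb was 10.1-fold lower in ML relative to HR-negative LP (log2 fold change -3.33, SE 0.77, adjusted p = 0.00462). Leaving out single libraries gave -4.13 (without ML replicate 1) to -2.86 (without ML replicate 2), with adjusted p of 0.00253 to 0.0203. Rarb did not pass the test in ML relative to HR-positive LP (-1.94, SE 0.74, adjusted p = 0.227) or in HR-positive LP relative to HR-negative LP (-1.39, SE 0.70, adjusted p = 0.163). In GENCODE M21, 38.4% of the exon bases of Rarb (2020 of 5265) lie opposite exons of the neighbours Top2b and Gm48162. The deposited count table gives Rarb a length of 2775 bases, so the exons counted, and their overlap, may differ from these. How far reads of the neighbours entered the Rarb value was not tested. The library kit does not mark strand, and how reads in such overlaps were counted is not given in the sources used here. Top2b, a DNA topoisomerase gene, was at 212 ± 16.5 CPM in ML and 198 ± 13.3 CPM in HR-positive LP, against 214 ± 18.8 CPM in HR-negative LP (SD, n = 3) and was not called (adjusted p = 0.902, 0.956 and 0.569).

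Per length, Rarg made up about the same share of receptor RPKM everywhere, at 70.1% ± 3.45 in ML, 69.8% ± 3.46 in HR-positive LP and 69.7% ± 9.46 in HR-negative LP (SD, n = 3). Rara held 29.5% ± 3.54, 28.7% ± 3.03 and 26.5% ± 7.93 in the same order. Rarb held 0.411% ± 0.308 in ML, 1.44% ± 0.591 in HR-positive LP and 3.82% ± 2.09 in HR-negative LP. The ML shares of Rarb did not overlap those of either other population (exact two-sided permutation test, p = 0.1 in each case, the smallest that 3 against 3 libraries allow, and 0.5 after Benjamini-Hochberg adjustment over the 15 share comparisons made). For Rara and Rarg the exact p ranged from 0.7 to 1.

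**Figure D3:**
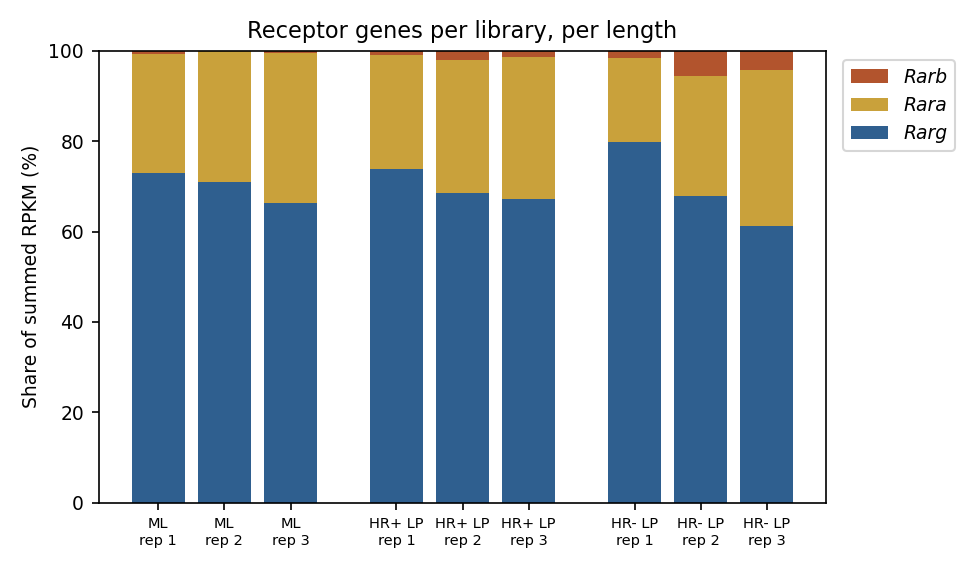
Share of the summed RPKM of Rara, Rarb and Rarg (y axis, percent) in each of the 9 libraries, with ML on the left, then HR-positive LP (HR+ LP) and HR-negative LP (HR- LP). Rarg takes 61.2 to 79.9% of each bar, and Rarb at most 5.60%, in HR-negative LP replicate 2.

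The genes with the profile most like each leading member were ranked by the root mean square difference of log2 CPM, centred on each gene's mean, over the 9 libraries and among 9151 named genes of mean log2 CPM over 3. For Aldh1a3 they were Sox10 (0.168), Fads2 (0.214) and Col11a1 (0.218). Sox10 stood at 2.97 ± 1.78 CPM in ML and 131 ± 23.6 CPM in HR-positive LP, against 404 ± 42.5 CPM in HR-negative LP (SD, n = 3). For Crabp2 they were Plxdc2 (0.259), Epb41l4a (0.353) and Cadm1 (0.356). Plxdc2 stood at 0.889 ± 0.358, 17.7 ± 2.36 and 57.0 ± 5.65 CPM in the same order. Only 83 of the 9151 genes lay within a difference of 1 from Aldh1a3 and 152 from Crabp2. For Dhrs3 (nearest Zer1, Tbc1d13 and Tmem256, 0.059 to 0.086) and Rarg (nearest Galt, Surf2 and Plin3, 0.071 to 0.078), 8200 and 8287 genes lay within that distance, so most of the 9151 genes were as near as that to these flat profiles.

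The wider retinoid pathway was read from 7 lists with 76 genes beside the members, of which 60 were tested. In ML relative to HR-positive LP, 0 were higher and 7 lower (11.7%, background 6.79%). In ML relative to HR-negative LP, 15 were higher and 15 lower (50%, background 44.6%), and in HR-positive LP relative to HR-negative LP, 11 were higher and 8 lower (31.7%, background 29.9%). The shares were close to the background in the comparisons with HR-negative LP. The median log2 fold changes over these 60 genes were 0.01, 0.29 and 0.18, against 0.01, 0.03 and 0.01 over all tested genes. Replicate numbers paired the ML and HR-positive LP libraries in the data, and with the number as a block in a fit of these 6 libraries 7 of 58 tested pathway genes were higher and 12 lower (32.8%, background 23.3%), while no member's call changed. Limma voom called 0 higher and 2 lower, and no longer called Stra6l (adjusted p = 0.0713), Rbp7 (0.129) or Cyp1b1 (0.337) between ML and HR-positive LP.

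Genes of retinol uptake and storage were mostly lower in ML and HR-positive LP relative to HR-negative LP. Of 6 tested, 3 were lower in ML relative to HR-positive LP, 5 were lower and 1 higher in ML relative to HR-negative LP, and 4 were lower and 1 higher in HR-positive LP relative to HR-negative LP, with medians of -1.88, -3.78 and -1.48. The shares called were 50, 100 and 83.3%, against a background of 6.79, 44.6 and 29.9% of all tested genes. In HR-positive LP relative to HR-negative LP, the weakest of the 4 lower calls had an adjusted p of 0.0467. That call was lost when any 1 of 7 libraries was left out (adjusted p 0.062 to 0.15). Stra6l, which encodes a receptor for the plasma retinol carrier, had no count in ML and was at least 92.2-fold lower there relative to HR-positive LP (adjusted p = 0.00146) and at least 184-fold lower relative to HR-negative LP (adjusted p = 0.00012). Rbp7, which encodes a cellular retinol-binding protein, also had no count in ML, at least 12.2-fold below HR-positive LP (adjusted p = 0.0123) and at least 105-fold below HR-negative LP (adjusted p = 0.000201). Rbp4, the plasma carrier itself, ran the other way, with no count in HR-negative LP and levels at least 135-fold higher in ML (adjusted p = 9.01e-05) and at least 121-fold higher in HR-positive LP (adjusted p = 0.000252).

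The enzymes that interconvert retinol and retinal included none that was called lower in any comparison. Of 15 tested, 0 were called between ML and HR-positive LP, 5 were higher in ML and 4 higher in HR-positive LP relative to HR-negative LP, with medians of 0.12, 0.60 and 0.73. These shares of 0, 33.3 and 26.7% were below the background of 6.79, 44.6 and 29.9%. Adh1, an alcohol dehydrogenase that oxidises retinol, had 24.6, 13.6 and 10.7 CPM in ML, 14.6, 10.4 and 7.10 CPM in HR-positive LP, and 0.182, 0.727 and 0 CPM in HR-negative LP. The HR-negative LP libraries all lay below 1 CPM and below every other library (log2 fold changes 5.48 and 4.88 for ML and HR-positive LP over HR-negative LP, adjusted p = 0.000144 and 0.000656). Adh7, of the same enzyme family, was higher on the log2 scale by 4.95 in ML (adjusted p = 0.00589) and by 4.91 in HR-positive LP (adjusted p = 0.00985), at 1.28 ± 0.598 and 1.24 ± 0.780 CPM against 0.0307 ± 0.0532 CPM in HR-negative LP. All 9 Adh7 counts in HR-negative LP were in replicate 2, and without that library the fitted log2 fold changes were 9.19 and 9.15 (adjusted p = 0.00179 and 0.00373), which are no bounds since the group then has no count. Akr1b8, an aldo-keto reductase, was higher by 1.90 and 1.67 in the same comparisons (adjusted p = 1.29e-05 and 9.69e-05), and Rdh13, a mitochondrial member of the retinol dehydrogenase family, by 1.23 and 0.96 (adjusted p = 0.00062 and 0.0052).

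The CYP26 genes, whose products break down retinoic acid, were low in every library. Cyp26b1, a retinoic acid hydroxylase, had 0.358 ± 0.0965 CPM in ML and 0.749 ± 0.388 CPM in HR-positive LP, against 1.91 ± 0.769 CPM in HR-negative LP (SD, n = 3). It was lower in ML relative to HR-negative LP (log2 fold change -2.41, adjusted p = 0.0186), a call lost without ML replicate 2 (adjusted p = 0.0662) or replicate 3 (adjusted p = 0.0617). Its relative Cyp26a1 had 7, 54 and 0 counts over the libraries of ML, HR-positive LP and HR-negative LP, and Cyp26c1 had 1, 21 and 0 counts, and neither was tested. Cyp1b1, of the same list but not a CYP26 gene, encodes a cytochrome P450 that acts on steroids. It had 0.268, 0.255 and 0.235 CPM in ML, 13.8, 3.91 and 2.81 CPM in HR-positive LP, and 39.4, 17.2 and 10.5 CPM in HR-negative LP. ML lay below every other library (log2 fold changes -4.76 and -6.46, adjusted p = 0.00177 and 5.89e-05), and HR-positive LP overlapped HR-negative LP (-1.70, adjusted p = 0.052). That difference was called by DESeq2 (adjusted p = 0.00932), limma voom (0.0181), with RLE size factors (0.0463), without a filter (0.0361), with the CPM filter (0.0472), with the replicate block (0.00148), and without HR-positive LP replicate 1 (0.00482) or HR-negative LP replicate 3 (0.0268). Cyp2s1, another P450 of the list, was not called (adjusted p = 0.654, 0.267 and 0.967).

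The receptor partners did not pass the main test, though Rxra was called under some alternatives. Rxra had 113 ± 17.3 CPM in ML and 108 ± 10.1 CPM in HR-positive LP, against 85.8 ± 11.6 CPM in HR-negative LP. Its adjusted p for ML over HR-negative LP was 0.0562 (log2 fold change 0.40). That difference was called by DESeq2 (adjusted p = 0.0484), with the replicate block (0.0194) and with library totals without TMM (0.013). It was also called without ML replicate 3 (0.0379) or HR-negative LP replicate 1 (0.0245). Rxrb had 55.5 ± 5.47, 58.1 ± 3.72 and 53.2 ± 8.49 CPM in the same order, and Rxrg had no count in any library. Fabp5, which can pass retinoic acid to PPAR delta, had at most 1.75 CPM, and Ppard, the gene of that receptor, had 33.5 ± 8.84, 36.3 ± 3.07 and 35.7 ± 4.40 CPM. Of the 12 coregulators, 1 was lower in ML relative to HR-positive LP, 1 was higher and 3 were lower in ML relative to HR-negative LP, and 1 was lower in HR-positive LP relative to HR-negative LP, with medians of -0.11, -0.22 and -0.05. In percent, 8.33, 33.3 and 8.33 were called, against a background of 6.79, 44.6 and 29.9. The coactivator gene Ncoa1 had 51.6 ± 3.15 CPM in ML and 81.9 ± 3.64 CPM in HR-positive LP, against 134 ± 25.3 CPM in HR-negative LP (log2 fold changes -0.67, -1.38 and -0.71, adjusted p = 0.0169, 2.37e-05 and 0.00434). Its groups did not overlap, and the first of these calls was lost without either of ML replicates 2 and 3 or without any 1 library of HR-positive LP (adjusted p 0.0508 to 0.0952). The corepressor gene Nrip1 was higher in ML relative to HR-negative LP (1.28, adjusted p = 0.0286), and Hdac3 (-0.41, adjusted p = 0.0191) and the acetyltransferase gene Kat2b (-0.32, adjusted p = 0.0432) were lower. The Nrip1 call ended without any 1 ML library or HR-negative LP replicate 2 (adjusted p 0.0545 to 0.0786), the Hdac3 call without ML replicate 2, ML replicate 3 or HR-negative LP replicate 2 (0.0511 to 0.0711), and the Kat2b call without any library other than HR-negative LP replicate 1 (0.0596 to 0.137).

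Genes known to respond to retinoic acid did not move together. The list has 17 genes, among them the members Rarb, Dhrs3 and Crabp2 and genes of the lists above, and 9 were tested. Of these, 0 were higher and 2 lower in ML relative to HR-positive LP, 2 were higher and 5 lower in ML relative to HR-negative LP, and 1 was higher and 3 were lower in HR-positive LP relative to HR-negative LP, with medians of -0.50, -0.99 and -0.49. Called shares were 22.2, 77.8 and 44.4% of the 9, above the background of 6.79, 44.6 and 29.9%. Tgm2, the gene of tissue transglutaminase, had 2476, 6182 and 5665 CPM in ML, 1861, 3934 and 3798 CPM in HR-positive LP, and 180.5, 300 and 218 CPM in HR-negative LP. It was far above HR-negative LP in every library of ML and HR-positive LP (log2 fold changes 4.36 and 3.78, adjusted p = 8.31e-06 and 6.22e-05), opposite in direction to Crabp2. Btg2, an antiproliferative gene, had 765 ± 255 CPM in ML and 1265 ± 201 CPM in HR-positive LP, against 2541 ± 582 CPM in HR-negative LP and was lower in ML (-1.73, adjusted p = 0.000235) and in HR-positive LP (-1.01, adjusted p = 0.0116) relative to HR-negative LP.

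**Figure D4:**
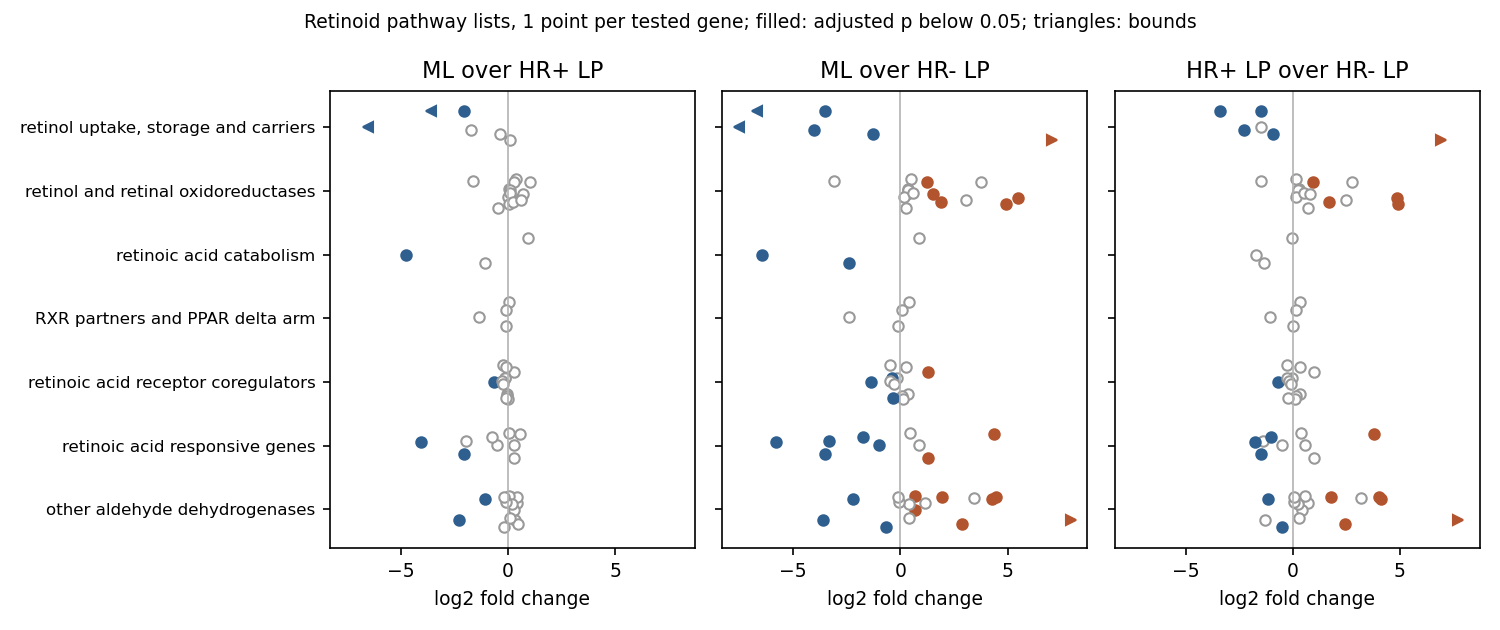
Log2 fold changes (x axis) of the tested genes in the 7 retinoid lists (rows; 1 point per gene, shifted up or down so that points do not cover each other) for ML over HR-positive LP, ML over HR-negative LP and HR-positive LP over HR-negative LP. Filled symbols passed an adjusted p of 0.05, in red where higher and blue where lower in the first-named population, and triangles are lower bounds for genes with no count in a population; the oxidoreductase row has no filled blue symbol, and the uptake row has 5 in ML over HR-negative LP.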

How the data were processed

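Libraries had been made by the TruSeq RNA Library Prep Kit v2, which does not mark strand, from a minimum of 50 ng of DNase-treated total RNA (miRNeasy extraction), per the labels' protocols. The deposited values are raw read counts per gene, made by the authors and linked to featureCounts and mm10 per the submitters' processing notes; the aligner, the annotation and the treatment of overlapping or multiply matching reads are not given in the sources used here. The series table and the library files differed in 0 values. Of 27179 NCBI gene IDs, 25275 matched a symbol in RefSeq (GRCm38), and 7254 had no count. edgeR's filterByExpr by group kept 15910 genes. All 9 libraries were fitted together with TMM factors, without covariates, and tested pairwise by edgeR's quasi-likelihood F test, with Benjamini-Hochberg adjustment over these genes and a threshold of 0.05. SEs were derived from the log2 fold change and F. RPKM used the length column of the deposited table. For genes with no count in a population, the fold is a bound from a floor of 3 counts over its libraries. These floors and bounds use pooled counts over pooled library totals, without TMM factors. Shares within a family were compared with exact two-sided permutation tests. The fitting procedure was tested on simulated data. Of 100 genes changed 2-fold in HR-positive LP, 55 were called between ML and HR-positive LP. Between HR-positive LP and HR-negative LP, 50 were called. Of 100 changed 4-fold, 85 were called in each of these comparisons, with 9 and 7 false calls in all. A gene that was not called may therefore still differ. The tools were edgeR 4.0.16, DESeq2 1.42.0 and limma 3.58.1 in R 4.3.3, and scipy 1.17.1 in Python 3.11.15.

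The members and the lists were chosen with earlier results of these data known. All members are named; from each pathway list up to 4 tested genes with the smallest p in any comparison are named, plus Aldh1a7 and the Rxr and Cyp26 genes. A pathway gene that this rule names and an immune marker are counted in their lists but not reported here by name. The alternatives were DESeq2, limma voom, RLE size factors, no filter, a filter of CPM over 1 in 3 libraries, a fit of the compared groups alone, replicate number as a block, and leaving out each library; library totals without TMM and the block in the compared groups alone were added after the data were seen. Replicate libraries differed by far more than sampling noise (chi-square per degree of freedom 61.4 to 211). Deviations from the group means of same-numbered ML and HR-positive LP libraries correlated across genes at 0.183, 0.121 and 0.189, so the numbers pair these libraries, from the data alone. For ML and HR-negative LP the values were 0.053, 0.025 and 0.085, against -0.082 to 0.018 for libraries of different number. For HR-positive LP and HR-negative LP they were 0.133, 0.039 and 0.147, against -0.146 to 0.019. For ML and HR-positive LP, libraries of different number gave -0.142 to -0.05. Same-numbered values were the higher ones with HR-negative LP too. Those of replicates 1 and 3 of HR-positive LP and HR-negative LP (0.133 and 0.147) lay within the range of ML and HR-positive LP. The other same-numbered values with HR-negative LP were lower. As these values are uneven, whether the numbers pair HR-negative LP with the other populations is unclear.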

Additional observations from a re-analysis of the deposited data

How the results depend on the processing

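The calls of Aldh1a3 and Crabp2 in ML and of Rarb in ML relative to HR-negative LP held under all 18 alternatives, as did those of Crabp2 in HR-positive LP, and no result reversed. Genes higher in ML relative to HR-positive LP (15) numbered 88 with DESeq2, 50 with limma voom, 216 in a fit of the compared groups alone, 71 with the replicate block, 30 with library totals, 1422 with the block in the compared groups alone and 4 to 63 without single libraries; with that last block 2182 genes were lower, against 1066. Genes lower in HR-positive LP relative to HR-negative LP (2033) numbered 1211 to 2290 without single libraries, with 1329 if HR-positive LP replicate 1 was left out and 1211 if replicate 2 was. Members higher in ML relative to HR-negative LP (1, Crabp1) numbered 0 with limma voom and without a filter, and 0 to 1 without single libraries. They also numbered 0 with the CPM filter and in the compared groups alone, where Crabp1 was filtered out and not tested. Members higher in HR-positive LP relative to HR-negative LP (1, Crabp1) numbered 0 without a filter, 2 with the replicate block and 0 to 1 without single libraries. With the CPM filter, which left Crabp1 untested, 0 were higher. Members lower in that comparison numbered 1 to 2 without single libraries. Without HR-negative LP replicate 3 the log2 fold changes over HR-negative LP were -7.07 and -1.60 for Aldh1a3 (adjusted p = 1.03e-05 and 0.0412 in ML and HR-positive LP). Whether the replicate number pairs HR-negative LP with the other populations is unclear. As a block it gave Dhrs3 a log2 fold change over HR-negative LP of 0.47 in ML (adjusted p = 0.00964) and 0.42 in HR-positive LP (adjusted p = 0.0247). The block also ended the Crabp1 call in ML (adjusted p = 0.0844). With it, 23 pathway genes were higher in ML relative to HR-negative LP, where 15 were called without it. Limma voom called Rarb in HR-positive LP (adjusted p = 0.0386). Library totals without TMM moved the median log2 fold change of all tested genes over HR-negative LP to 0.192 in ML and 0.115 in HR-positive LP, and ended the calls of Hdac3 (adjusted p = 0.152) and Kat2b (adjusted p = 0.372) in ML. Shares of CPM not divided by length gave Rara 35.0% of the receptor sum in ML and 34.2% in HR-positive LP, against 29.5% and 28.7% per length. Of 48 calls of pathway genes checked, 41 held whichever single library was left out. Depth limits Aldh1a1, Aldh1a2 and Crabp1, which had at most 52 counts in a library. The causes were not tested.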

Other observations

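Aldehyde dehydrogenases outside the ALDH1A genes ran in both directions. Of 16 tested, 0 were higher and 2 lower in ML relative to HR-positive LP, 7 were higher and 3 lower in ML relative to HR-negative LP, and 5 were higher with 2 lower in HR-positive LP relative to HR-negative LP. That came to 12.5, 62.5 and 43.75% called, beside 6.79, 44.6 and 29.9% of all tested genes. Aldh3a2, which oxidises long-chain fatty aldehydes, had 274, 287 and 311 CPM in ML, 203, 207 and 228 CPM in HR-positive LP, and 45.4, 39.9 and 31.7 CPM in HR-negative LP. Its level in ML and in HR-positive LP was above that of HR-negative LP by 2.90 (SE 0.16, adjusted p = 1.59e-07) and 2.45 (SE 0.15, adjusted p = 2.84e-06) on the log2 scale, opposite in direction to Aldh1a3. Aldh3b1 was higher by 1.94 and 1.78 and Aldh3b2 by 4.44 and 4.01 in the same comparisons (adjusted p = 1.14e-05, 6.37e-05, 1.71e-05 and 9.51e-05). Aldh2, the mitochondrial enzyme of acetaldehyde oxidation, had 59.1, 56.0 and 43.1 CPM in ML, 113, 114 and 104 CPM in HR-positive LP, and 243, 263 and 220 CPM in HR-negative LP. Its groups did not overlap, in the same order as Aldh1a3 (log2 fold changes -1.06, -2.20 and -1.14, adjusted p = 0.000588, 7.7e-07 and 0.000217).

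Aldh1a7, which shares 7.49% of its 50-base transcript stretches with Aldh1a1, had 1.88, 1.08 and 2.92 CPM in ML, 0.925, 1.93 and 2.11 CPM in HR-positive LP, and 0, 0.0102 and 0.608 CPM in HR-negative LP. It did not pass the test over HR-negative LP by edgeR with all libraries (adjusted p = 0.0548 for ML and 0.0912 for HR-positive LP). DESeq2 (0.0137 and 0.0336), limma voom (0.00886 and 0.0132) and the replicate block (0.0187 and 0.0305) called it in both, and no filter (0.044), the CPM filter (0.0438) and library totals (0.0419) in ML. Without HR-negative LP replicate 3, which held 17 of its 18 counts in that population, the adjusted p was 0.000222 for ML and 0.000626 for HR-positive LP.

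The ratio of Aldh1a3 to Dhrs3, which act on retinal in opposite directions, was chosen after its values had been seen. In RPKM it was 0.0458, 0.0095 and 0.0756 in ML, 1.57, 1.63 and 2.66 in HR-positive LP, and 5.84, 7.04 and 12.8 in HR-negative LP. Dhrs3 exceeded Aldh1a3 in all 3 ML libraries and in none of the other 6.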
